A study of Mus musculus with 8 samples.

Results

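Cytochrome P450 genes were examined in the lacrimal gland (LG) of mice fed ad libitum (AL) or placed on calorie restriction (CR). They were taken as every row of the count table whose symbol began with Cyp, a number and a letter, which gave 104 rows of 24557. Of these, 99 were genes, 4 were marked as pseudogenes and 1, Cyp4x1os, was a transcript of the opposite strand. At least 1 read was counted for 44 of them, and the other 60 were at 0 in all 8 libraries. Symbols of the P450 enzymes Cyp51, Tbxas1 and Ptgis fall outside this pattern, and these were listed among the companion genes.

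RNA was sequenced from the 3′ ends of transcripts in exorbital LGs, the large tear glands outside the orbit, of female C57BL/6J mice. The 4 AL mice ate an unrestricted diet and the 4 CR mice received a 40% restriction for 4 months, starting at 6 to 7 months of age, so that all glands were taken at 10 to 11 months. The study describes 1 daily meal for CR mice, timed ahead of the dark phase. In its second cohort, the CR chow held 40% more vitamins and micronutrients than the AL chow. For its first cohort it names a standard chow. Each library is 1 mouse by its label, and which of them shared a pen or came from which of the study's cohorts was not given, so the p-values measure the spread between these 8 samples.

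P450 enzymes are heme proteins that insert an oxygen atom into their substrates, and most receive their electrons from P450 oxidoreductase, the product of Por. The CYP1, CYP2 and CYP3 families are best known from the liver, where they oxidise drugs, solvents and other foreign compounds. Other families handle fatty acids and eicosanoids (CYP4 and CYP2J), cholesterol and bile acids (CYP7, CYP27, CYP39 and CYP46), steroid hormones (CYP11, CYP17, CYP19 and CYP21), and vitamins A and D (CYP26, CYP24, CYP27B and CYP2R).

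Libraries held 12051881 to 22156511 counts. Levels are given as CPM, the reads of a gene scaled to a common library size after correction by RLE factors, and values of single mice always follow the order of replicates 1 to 4. The floor was set at 3 counts, or 0.152 to 0.231 CPM. Reads come from the 3′ end, so CPM are not corrected for transcript length, and comparisons between genes are of reads. Summed markers of the parotid gland, a salivary gland near the exorbital LG, ranged from 2016 to 25259 CPM in AL and from 19899 to 237407 CPM in CR, and CR replicate 4 was the lowest of the CR libraries. Of these 8 parotid markers, 7 were tested, 3 were called higher in CR, beside 1.2% of all genes, and Smgc was at 0. Summed lacrimal markers ranged from 223604 to 300116 CPM in AL and from 85757 to 232413 CPM in CR. All 8 lacrimal markers were tested and 1 was called lower in CR, beside 0.785% of all genes. White adipose markers ranged from 43.2 to 45.4 CPM in AL and from 51.9 to 166 CPM in CR. By qRT-PCR of further LG samples, the study reported more Prb1, a parotid marker here, and Adipoq, a white adipose marker here, in CR. It counted Prb1 with a salivary secretion pathway that it tied to LG function. Whether the marker RNA arose in the LG or in other tissue was not tested. Neither was its relation to the P450 results, as fits with a parotid covariate below cannot cleanly separate it from diet. In bulk RNA, fewer cells of a type and less RNA per cell cannot be told apart.

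Most P450 reads of the LG fell on a few CYP2 genes. Cyp2f2, Cyp2a5, Cyp2b10 and Cyp20a1 supplied 89.4% of all counts on P450 rows, with 39676, 22297, 3746 and 1701 counts over both diets. Cyp2f2 led in AL, at a mean of 350 CPM against 47.0 CPM for Cyp2a5, whereas in CR their means were 258 and 280 CPM, and Cyp2a5 was ahead in CR replicates 2 to 4. Cyp2f2 encodes a monooxygenase known from the lung's club cells, where it activates naphthalene. Cyp2a5 encodes the mouse coumarin 7-hydroxylase, which also oxidises nicotine. Cyp2b10 encodes the classic phenobarbital-inducible enzyme of mouse liver, and Cyp20a1 encodes an enzyme with no settled substrate.

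Only 18 of the 44 counted rows had enough reads to be tested. Compared with AL, CR LGs had more RNA of Cyp2a5, Cyp2s1 and Cyp2e1, which were the 3 P450 genes called higher, and no P450 gene was called lower. Cyp2e1 passed the filter on low counts through the CR libraries alone. Genes were called where edgeR's quasi-likelihood F test, adjusted by Benjamini-Hochberg over 11211 genes, gave p under 0.05 and the fold change reached 1.5. Of all genes tested, 1.98% were called, 1.2% higher and 0.785% lower. DESeq2 called 5 P450 genes higher and none lower, where it called 3.43% and 2.83% of all genes, and 1, Cyp2b19, was lower at an unadjusted p under 0.05 in edgeR. Of the 18, 12 had a fold change above 0 on the log2 scale and 6 below, with a median of 0.21 beside 0.01 over all genes. An unadjusted p under 0.05 was reached by 5 genes in the higher and 1 in the lower direction, where the shares of all genes were 8.62% and 8.1%, or 16.7% together. With the replicate number as a block, 5 P450 genes were called higher, since Cyp2b10 and Cyp39a1 joined the 3, while the share of all genes called higher rose to 3.46%. By edgeR with Benjamini-Hochberg adjustment, the number called without 1 library ranged from 0, on leaving out AL replicate 2, AL replicate 3, CR replicate 2 or CR replicate 3, to 5 without CR replicate 4, where 3.97% of all genes were called higher. The 4 fits with no P450 call called 35 to 49 genes higher in the whole table, against 134 with all libraries. It was 1 without AL replicate 1 or AL replicate 4.

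**Figure D1:**
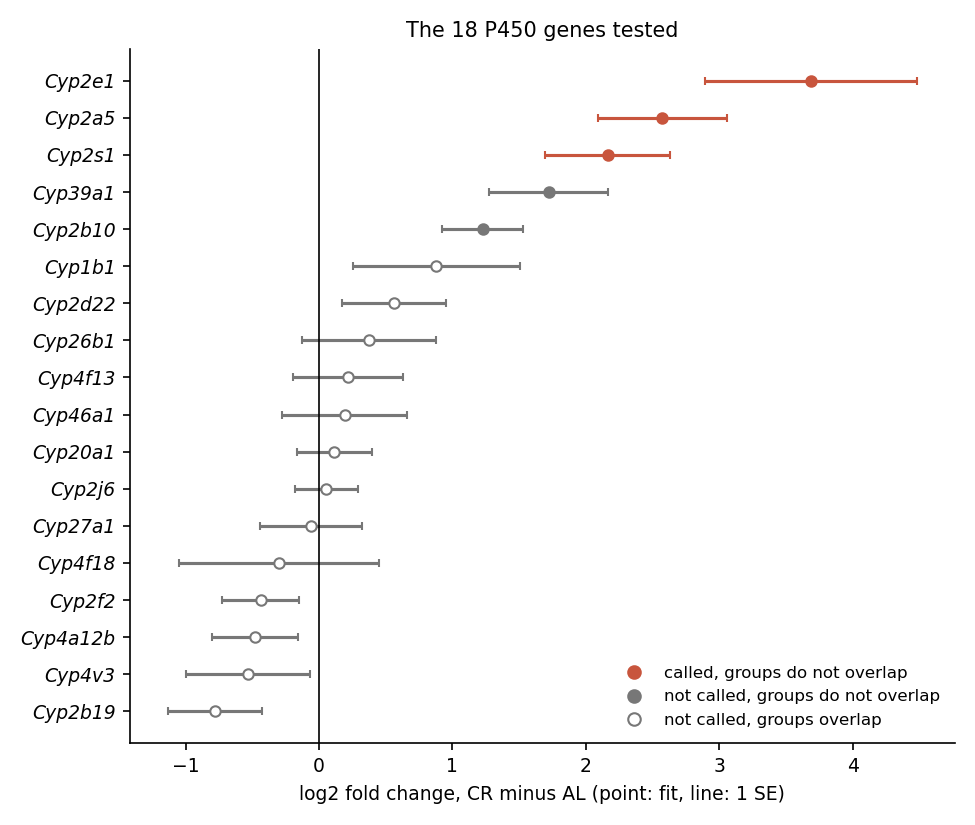
Log2 fold change of CR against AL for the 18 P450 genes tested, with 1 SE on each side. Cyp2e1, Cyp2a5 and Cyp2s1, in red, passed the thresholds. Cyp39a1 and Cyp2b10, as filled grey points, missed them although no CR library was as low as any AL library, and open points mark genes whose groups overlap.

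The promoters of the CYP2 genes that lead these results are shown because Cyp2a5, Cyp2s1 and Cyp2e1 were called higher and Cyp2b10 and Cyp2b19 lie in the same gene cluster as Cyp2a5. Each sequence is the 250 bases before the RefSeq start site on GRCm38.p6, written 5′ to 3′ on the gene's strand. Capitals mark the TATA box letters TATAAA on the given strand, and on either strand the CCAAT box letters CCAAT, the aryl hydrocarbon receptor core GCGTG and the run TTGCATAA.
Cyp2a5, chr7:26835089-26835338, plus strand: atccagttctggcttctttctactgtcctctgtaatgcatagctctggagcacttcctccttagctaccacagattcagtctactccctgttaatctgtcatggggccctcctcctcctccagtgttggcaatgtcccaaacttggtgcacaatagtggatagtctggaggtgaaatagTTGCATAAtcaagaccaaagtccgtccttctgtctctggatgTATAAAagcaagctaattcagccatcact
Cyp2s1, chr7:25816526-25816775, minus strand: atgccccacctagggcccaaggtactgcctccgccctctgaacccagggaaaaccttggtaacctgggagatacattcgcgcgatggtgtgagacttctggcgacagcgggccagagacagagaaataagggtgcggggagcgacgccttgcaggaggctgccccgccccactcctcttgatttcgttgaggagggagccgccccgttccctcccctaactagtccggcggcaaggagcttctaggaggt
Cyp2e1, chr7:140763569-140763818, plus strand: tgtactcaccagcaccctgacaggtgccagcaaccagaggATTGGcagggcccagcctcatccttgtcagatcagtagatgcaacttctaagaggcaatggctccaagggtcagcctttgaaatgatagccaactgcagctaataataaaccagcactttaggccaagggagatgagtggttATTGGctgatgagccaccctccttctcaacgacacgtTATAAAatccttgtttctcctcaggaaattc
Cyp2b10, chr7:25897408-25897657, plus strand: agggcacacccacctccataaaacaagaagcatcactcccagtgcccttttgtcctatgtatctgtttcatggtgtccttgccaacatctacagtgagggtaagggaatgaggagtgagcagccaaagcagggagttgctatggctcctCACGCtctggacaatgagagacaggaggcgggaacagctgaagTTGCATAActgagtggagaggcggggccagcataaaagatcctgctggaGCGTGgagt
Cyp2b19, chr7:26756892-26757141, plus strand: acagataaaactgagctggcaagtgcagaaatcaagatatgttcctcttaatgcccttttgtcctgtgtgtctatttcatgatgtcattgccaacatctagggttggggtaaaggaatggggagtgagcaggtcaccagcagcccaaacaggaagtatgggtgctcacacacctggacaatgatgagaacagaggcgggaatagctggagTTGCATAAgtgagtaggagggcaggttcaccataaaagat

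Cyp2a5 and Cyp2e1 carry a TATA box that begins 29 and 31 bases before the start site. These letters occur in 7.59% of 32851 promoters and in 22 of 87 P450 promoters. The latter include those of Cyp3a11 and Cyp2a12, for which no read was counted. The Cyp2s1 promoter has none of the marked letters and the highest GC content of the 5, at 62.0%, against a median of 52.4% over all promoters. The run TTGCATAA, singled out after the sequences had been read, begins 71 bases before the start in Cyp2a5, 58 in Cyp2b10 and 40 in Cyp2b19. It occurs in 0.694% of all promoters and in 6 of 87 P450 promoters, the other 3 being those of Cyp2a4, Cyp2b23 and Cyp4f14. Among the tested holders, Cyp2a5 was called higher. Cyp2b10, with a higher mean in CR, and Cyp2b19, with a lower one, did not pass the thresholds. Whether the run has a part in these levels was not tested. The D box letters TTATGTAA and TTACGTAA, searched on both strands, occur in 0.819% and 0.113% of all promoters and in none of the 87 P450 promoters, which says only that these letters are not in these windows. The E box CACGTG occurs in 6.02% of all promoters and, among the P450 genes tested, in Cyp2j6 and Cyp4v3. RefSeq promoters were matched for 77 of the 104 rows and 15 of the 18 tested genes, and not for Cyp2d22, Cyp39a1 and Cyp4a12b.

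Cyp2a5 was the most counted P450 gene that rose. The AL mice had 27.5, 49.9, 35.2 and 75.3 CPM, and the CR mice had 100.3, 204, 236 and 581 CPM. Every CR library was above every AL library, and CR replicate 4 stood highest. In the edgeR quasi-likelihood test the change was 5.96-fold, or 2.57 ± 0.48 on the log2 scale (SE, n = 4 per group), with a Benjamini-Hochberg adjusted p of 0.0223. Among all genes tested, the groups did not overlap in 9.79%, with CR above AL in 4.58%, and CR lay above AL in 5 of the 18 P450 genes: Cyp2a5, Cyp2s1, Cyp2e1, Cyp2b10 and Cyp39a1. For Cyp2e1 the filter itself fixed this order. The Cyp2a5 call was lost without AL replicate 1, 2 or 3 or CR replicate 2 or 3, at edgeR adjusted p of 0.0569 to 0.0835, while the log2 fold change stayed between 1.93 and 2.90. It held with the parotid marker score as a covariate, at 4.49 on the log2 scale and an edgeR adjusted p of 0.0491, in a fit that called 0.0357% of all genes higher. That score, a mean log2 CPM, ran from 3.17 to 6.65 in AL and from 8.23 to 11.3 in CR and so did not overlap between the diets. Fits with this covariate therefore cannot cleanly separate diet from score, here and for the genes below. A call kept or lost under it does not test a parotid part.

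Part of the Cyp2a5 value is shared with a neighbour. Of the 75-base windows in the last 600 bases of its transcripts, 26.6% also occur in Cyp2a4, a near-identical gene, or in Cyp2a21-ps, so that reads there cannot be assigned with certainty. Cyp2a4, which encodes a testosterone 15-alpha-hydroxylase, had 42 counts, 10 in AL and 32 in CR, and was not tested. With the counts of both genes summed, the log2 fold change was 2.57 at an edgeR adjusted p of 0.0224.

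The make-up of the P450 reads differed between the diets. Cyp2a5 was 7.74%, 10.0%, 6.77% and 13.4% of P450 CPM in the AL mice, and 25.8%, 36.9%, 40.0% and 52.2% in the CR mice. Cyp2f2 was 68.1%, 72.3%, 75.6% and 72.0% in AL and 49.4%, 36.4%, 35.5% and 38.8% in CR. The groups overlapped in neither share, and the shares of both genes within a library depend on each other. Summed P450 CPM did overlap, with 355, 497, 520.1 and 563 in the AL mice and 388, 552, 590.3 and 1114 in the CR mice.

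**Figure D2:**
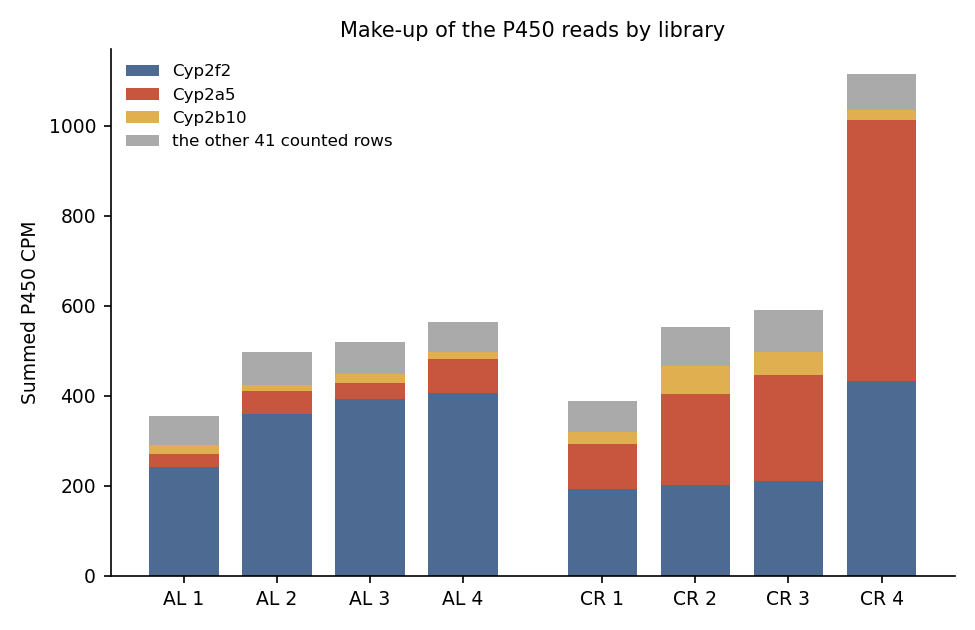
Summed CPM of all P450 rows in each library, split into Cyp2f2, Cyp2a5, Cyp2b10 and the other 41 counted rows. Cyp2a5 (red) took 6.77% to 13.4% of the sum in AL libraries and 25.8% to 52.2% in CR libraries, and CR replicate 4 had the largest sum, at 1114 CPM.

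Cyp2f2 itself did not pass the test. The AL mice had 242, 359, 393 and 405 CPM and the CR mice had 192, 201, 209 and 432 CPM. CR replicates 1 to 3 were below all AL libraries, and CR replicate 4 was above them all. The log2 fold change was -0.44 ± 0.29 (SE, n = 4 per group) with an edgeR Benjamini-Hochberg adjusted p of 0.499, and without CR replicate 4 it was -0.80, at an adjusted p of 0.0502.

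Cyp2s1 encodes an enzyme of epithelia that is inducible through the aryl hydrocarbon receptor in some cells. It stood at 0.693, 1.84, 1.60 and 1.82 CPM in the AL mice and at 6.43, 10.1, 8.41 and 2.11 CPM in the CR mice. CR replicate 4 lay just above the AL libraries, and the other 3 CR libraries lay well above them. The rise was 4.48-fold, 2.16 ± 0.47 on the log2 scale (SE, n = 4 per group), at an edgeR Benjamini-Hochberg adjusted p of 0.0382. The call held without CR replicate 4 and was lost without any other library, at edgeR adjusted p of 0.0617 to 0.149 and log2 fold changes of 1.91 to 2.27. It was also lost with the parotid score as a covariate, where the log2 fold change was 1.69 ± 1.06 (SE, n = 4 per group) and the edgeR adjusted p was 0.672. Exons of Cyp2s1, Cyp2f2 and Cyp4f18 overlap those of Gm26707, Gm15883 and Zfp961 on the opposite strand, and whether counting used strand was not given.

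Cyp2e1, which oxidises ethanol, acetone and other small molecules, is a gene that fasting and ketone bodies are known to raise in liver. It was rarely counted, with 14 counts over the AL libraries and 199 over the CR libraries. The AL mice had 0.616, 0, 0.0728 and 0.253 CPM, and the CR mice had 1.48, 2.84, 5.88 and 1.94 CPM. Every CR library was above every AL library, and 2 of the 4 AL libraries were under the floor of 3 counts. Cyp2e1 entered the test through the CR libraries alone, since no AL library reached the 0.653 CPM that the filter required in 4 libraries, so that a gene kept in this way had to differ. The fitted log2 fold change was 3.69 ± 0.79 (SE, n = 4 per group) at an edgeR Benjamini-Hochberg adjusted p of 0.0369, and so low an AL level makes its size imprecise. The call was lost without AL replicate 2, 3 or 4 or CR replicate 2 or 3, at edgeR adjusted p of 0.0694 to 0.129 and log2 fold changes of 3.15 to 3.75, and also with parotid markers as a covariate, at 3.69 ± 1.51 and 0.574. Of 12 white adipose markers, 9 were tested and 2, Fabp4 and Car3, were called higher, beside 1.2% of all genes. Their log2 fold changes were 2.37 and 2.83, at edgeR adjusted p of 0.0208 and 0.00697. The sum of the list was 110, 117, 166 and 51.9 CPM in the CR mice. CR replicate 3 was the highest library for this sum and for Cyp2e1. The lowest CR library was replicate 4 for the sum and replicate 1 for Cyp2e1. Of 10 liver markers, whose sum ranged from 0.304 to 8.93 CPM in AL and from 6.55 to 163 CPM in CR, only Ttr was tested and it was called higher, at 4.61 and an edgeR adjusted p of 0.0317. Alb with 15 counts and Ahsg with 4 were counted only in CR libraries, Apoa1, Apoa2 and Fgb with 1, 2 and 4 counts only in AL libraries, Apoh with 6 in each group, and Serpina1a, Tat and Cps1 were at 0. The part of either tissue in the Cyp2e1 values was not tested.

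Cyp2b10 and Cyp39a1 were higher in every CR library than in any AL library and narrowly missed the adjusted threshold in the main edgeR test. DESeq2, limma voom and edgeR without the filter called both higher. With TMM factors, upper-quartile factors or robust dispersion neither was called. Cyp2b10 had 20.1, 13.5, 20.2 and 16.1 CPM in the AL mice and 27.3, 62.0, 51.6 and 22.3 CPM in the CR mice. The 2 highest values, in CR replicates 2 and 3, were well above the rest, and CR replicate 4 was close to the AL libraries. Its log2 fold change was 1.23 ± 0.30 (SE, n = 4 per group) at an edgeR Benjamini-Hochberg adjusted p of 0.0627, and with the replicate block it was 1.12 at 0.0259. Without CR replicate 4 the edgeR adjusted p was 0.00674, at 1.43 on the log2 scale. Under the parotid covariate it was 0.841, at 0.46 ± 0.58.

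Cyp39a1 encodes the 24-hydroxycholesterol 7-alpha-hydroxylase, a step that clears oxysterols. The AL mice had 1.62, 1.90, 0.364 and 1.82 CPM, and the CR mice had 3.89, 6.74, 4.76 and 3.66 CPM. The groups did not overlap, and AL replicate 3 was the lowest. The log2 fold change was 1.72 ± 0.45 (SE, n = 4 per group) at an edgeR Benjamini-Hochberg adjusted p of 0.0701, and with the replicate block it was 1.80 at 0.0266. Without CR replicate 4 it was 1.83 at an edgeR adjusted p of 0.0398, and with the parotid covariate 1.48 ± 0.93 at 0.672.

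**Figure D3:**
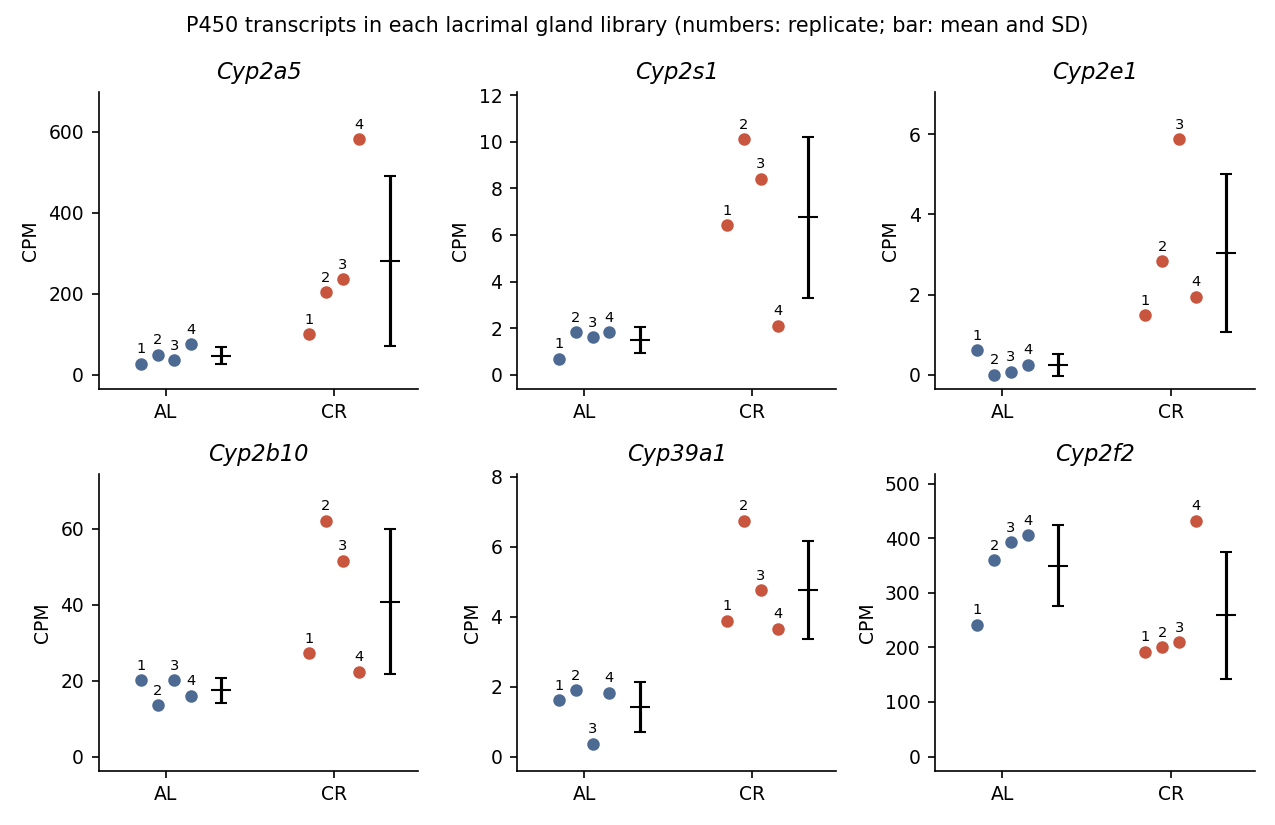
CPM of 6 P450 genes in each library on linear axes, with the replicate number at each point and the mean and SD of 4 libraries at the right of each group. Cyp2a5, Cyp2s1, Cyp2e1, Cyp2b10 and Cyp39a1 do not overlap between AL and CR, whereas Cyp2f2 does because CR replicate 4 stands at 432 CPM.

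Of the remaining tested CYP1 and CYP2 genes of foreign compounds, Cyp2b19 had the lower mean in CR. It encodes a keratinocyte enzyme that forms epoxides of arachidonic acid. The AL mice had 7.62, 7.72, 4.44 and 3.09 CPM and the CR mice had 2.83, 2.31, 4.52 and 3.61 CPM. AL replicates 1 and 2 were high, and AL replicates 3 and 4 lay within the CR range. The log2 fold change of -0.78 ± 0.35 (SE, n = 4 per group) had an edgeR Benjamini-Hochberg adjusted p of 0.291. Cyp1b1, a target of the aryl hydrocarbon receptor, ranged from 0.154 to 1.47 CPM in AL and from 0.888 to 1.67 CPM in CR, and Cyp1a1 and Cyp1a2, its best known inducible relatives, were at 0. Cyp2d22 ranged from 1.53 to 2.92 CPM in AL and from 1.98 to 5.01 CPM in CR. Neither Cyp1b1 nor Cyp2d22 passed the test, with log2 fold changes of 0.88 and 0.56.

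Several of the CYP2 genes above lie in a single cluster. On mouse chromosome 7 (GRCm38, GENCODE vM21), 13 P450 genes sit between positions 25802475 and 27158668, over 1356 kb. Of these, 8 were counted, 5 were tested (Cyp2s1, Cyp2b10, Cyp2b19, Cyp2a5 and Cyp2f2), and 5 were at 0 (Cyp2b13, Cyp2g1, Cyp2a22, Cyp2a12 and Cyp2t4). Cyp2s1 and Cyp2b10, the first P450 genes of the cluster, had every CR library above every AL library, with log2 fold changes of 2.16 and 1.23. Cyp2b19 starts at 26757142 and Cyp2a5 at 26835305, with the uncounted Cyp2g1 between them, and their log2 fold changes were -0.78, which did not pass the test, and 2.57. Egln2, a gene of oxygen sensing, spans 27158658 to 27166802 and so only touches the end of the interval. It was the only tested gene overlapping the interval that is no P450, with a log2 fold change of 0.15. Cyp2e1 lies far from the cluster on the same chromosome, at 140763739 to 140774987.

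**Figure D4:**
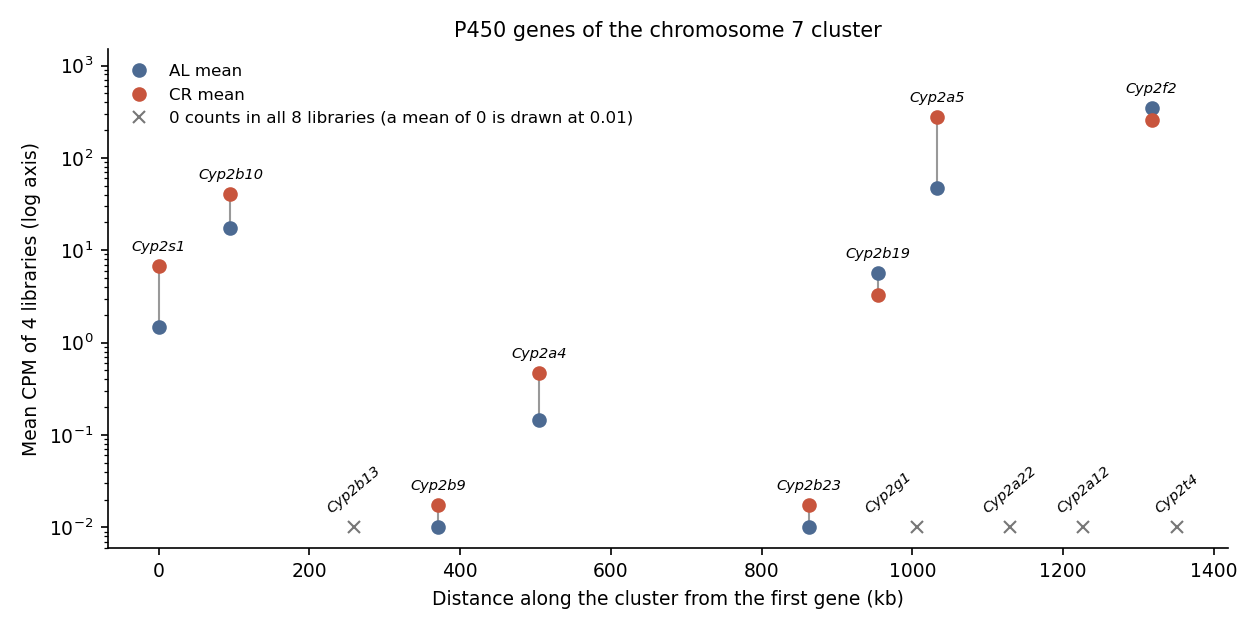
Mean CPM of 4 AL and 4 CR libraries (log axis) for the 13 P450 genes of the chromosome 7 cluster, against the distance of each gene's start from that of Cyp2s1 in kb. Cyp2s1, Cyp2b10 and Cyp2a5 have higher CR than AL means, Cyp2b19 and Cyp2f2 lower ones, and crosses mark the 5 genes at 0.

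P450 families that dominate the liver were hardly counted in the LG. Of 9 Cyp3a rows, only Cyp3a57 was counted, with 3 counts in all. Of 16 Cyp2c rows, only Cyp2c44 was counted, with 1. These include the main drug-metabolising genes of mouse liver, such as Cyp3a11 and Cyp2c29, which were at 0. In a library, 0 counts allow a level of up to 0.152 to 0.231 CPM, and this limit covers counting error only.

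Genes of fatty acid and eicosanoid oxidation were counted more widely, with 17 of 31 rows, and none of the 5 tested was called. Cyp2j6, an epoxygenase of arachidonic acid, ranged from 7.60 to 9.54 CPM in AL and from 6.49 to 12.4 CPM in CR, with a log2 fold change of 0.05. Cyp4f13 ranged from 2.21 to 7.06 CPM in AL and from 2.47 to 6.68 CPM in CR, with 0.22. Cyp4v3, whose human counterpart is mutated in Bietti crystalline dystrophy of the retina, ranged from 1.46 to 5.10 CPM in AL and from 1.24 to 2.97 CPM in CR, with -0.53. Cyp4f18, a hydroxylase of leukotriene B4 in neutrophils, ranged from 0.306 to 2.18 CPM in AL and from 0.237 to 1.67 CPM in CR, with -0.30. AL and CR overlapped for each of these genes.

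Cyp4a12a and Cyp4a12b are near-identical genes of fatty acid omega-hydroxylases, which act on arachidonic acid. Cyp4a12a had 0 counts in all 4 AL libraries and 2.05, 0.532, 1.86 and 0.499 CPM in the CR mice, or 77 counts. Against a floor of 3 counts per library, its mean was at least 6.29-fold higher in CR. It was too rare for the main test, and when no filter was applied edgeR called it higher at an adjusted p of 0.00799. Cyp4a12b had 8.85, 9.62, 13.4 and 7.70 CPM in the AL mice and 5.72, 3.73, 7.11 and 11.7 CPM in the CR mice, with a log2 fold change of -0.48 ± 0.32 (SE, n = 4 per group) and an edgeR adjusted p of 0.509. Because 26.4% of the windows at the 3′ ends are shared, the split of reads between the pair is uncertain. Their summed level was 9.89 ± 2.46 CPM in AL and 8.30 ± 3.28 CPM in CR (SD, n = 4 per group), which overlapped.

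Cyp4b1, which oxidises medium-chain fatty acids and activates some lung toxins, was also too rare to test. It had 0.0770, 0.0613, 0 and 0.203 CPM in the AL mice and 0.0707, 1.36, 1.61 and 1.16 CPM in the CR mice. CR replicates 2 to 4 stood above all AL libraries and CR replicate 1 lay within their range. When no filter was applied, its log2 fold change was 3.44 ± 1.04 (SE, n = 4 per group) at an edgeR adjusted p of 0.0929. It passed the filter and was called in the fit without CR replicate 1, its lowest CR library, where the high CR libraries alone let it in. Cyp4f15, with 63 counts, ranged from 0.0770 to 0.557 CPM in AL and from 0.237 to 1.13 CPM in CR. The remaining rarely counted rows of these families were Cyp4f16 and Cyp4f17 with 44 counts each, Cyp4a10 with 40, Cyp2j9 with 29, the pseudogene Cyp4f41-ps with 24, Cyp2j8 with 6, Cyp4a32 with 3, Cyp2u1 with 2 and Cyp4a31 with 1.

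Of the genes of cholesterol clearance and bile acid synthesis, Cyp39a1 was the only 1 of 3 tested with an unadjusted p under 0.05, beside 16.7% of all genes. Cyp27a1, the mitochondrial sterol 27-hydroxylase, had 4.00, 9.50, 4.80 and 10.4 CPM in the AL mice and 3.75, 8.16, 5.13 and 10.7 CPM in the CR mice. High and low libraries occurred in both groups, and the log2 fold change was -0.06 ± 0.38 (SE, n = 4 per group). Cyp46a1, the cholesterol 24-hydroxylase whose product Cyp39a1 accepts, ranged from 1.72 to 2.33 CPM in AL and from 0.666 to 3.60 CPM in CR, with a log2 fold change of 0.19. Cyp7b1, the oxysterol 7-alpha-hydroxylase, was not tested and had 0.308, 2.14, 2.18 and 0.405 CPM in AL and 0.353, 0, 0.495 and 1.28 CPM in CR. Cyp7a1, the rate-limiting enzyme of bile acid synthesis in liver, was at 0, and Cyp8b1 had 7 counts.

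Genes of steroid hormone synthesis were at or near 0. Cyp11a1, which makes pregnenolone from cholesterol, had 9 counts, all in AL libraries. Cyp19a1, the aromatase, had 3, all in CR replicate 3. Cyp11b1, Cyp11b2, Cyp17a1 and Cyp21a1 were at 0. None of the 6 passed the filter of the main test. When no filter was applied, edgeR called neither Cyp11a1 nor Cyp19a1. Their log2 fold changes were -4.37 and 2.79, at edgeR adjusted p of 0.337 and 0.520.

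Of the genes that turn over vitamins A and D, Cyp26b1 was tested. It encodes a retinoic acid hydroxylase. The AL mice had 8.31, 5.94, 6.11 and 2.64 CPM, and the CR mice had 10.7, 4.26, 12.7 and 2.11 CPM. Replicate 4 was the lowest of each group, and the log2 fold change was 0.38 ± 0.50 (SE, n = 4 per group) at an edgeR adjusted p of 0.784. Cyp2r1, a vitamin D 25-hydroxylase, had 19 counts in AL and 4 in CR, with every CR library below every AL library, and was too rare for the main test. When no filter was applied, its log2 fold change was -2.16 ± 1.41 (SE, n = 4 per group) at an edgeR adjusted p of 0.508. Among tested genes, 5.2% had all CR libraries below all AL libraries. Cyp27b1 had 5 counts, Cyp26a1 had 2, and Cyp24a1 and Cyp26c1 were at 0.

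Cyp20a1 had 11.5, 16.7, 6.92 and 14.6 CPM in the AL mice and 9.89, 14.7, 11.3 and 18.0 CPM in the CR mice. The groups overlapped, with a log2 fold change of 0.12 ± 0.28 (SE, n = 4 per group). The last counted rows were Cyp2ab1 with 8 counts, Cyp2d11 with 7, and Cyp2b23 and Cyp2b9 with 1 each.

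In the main edgeR test, no gene that supplies electrons or heme to P450 enzymes was called. Of 10 tested redox partners, 2 had an unadjusted p under 0.05, Cyb5a and Cyb5r1, beside 16.7% of all genes, and DESeq2 called Cyb5r1. Por, the main electron donor, had 178, 226, 250.4 and 219 CPM in the AL mice and 173, 169, 297 and 299 CPM in the CR mice, with a log2 fold change of 0.10 ± 0.24 (SE, n = 4 per group). Its groups overlapped. Cyb5a, cytochrome b5, which passes electrons to some P450 enzymes, ranged from 67.7 to 83.1 CPM in AL and from 85.5 to 126 CPM in CR without overlap, at 0.45 ± 0.17 on the log2 scale and an edgeR Benjamini-Hochberg adjusted p of 0.200. Cyb5r1, a cytochrome b5 reductase, ranged from 12.4 to 22.1 CPM in AL and from 5.88 to 11.8 CPM in CR without overlap, at -1.16 ± 0.27 and an edgeR adjusted p of 0.0508, and with the replicate block it was called lower, at 0.00979. Cyb5r1 was also called lower by voom, with upper-quartile factors, robust dispersion, no filter or at least 10 counts in every library, and on leaving out AL replicate 4 or either of CR replicates 1 and 4, at adjusted p of 0.0206 to 0.0474, but not with the parotid covariate, at -1.72 ± 0.54 and 0.510. Of 15 tested genes of heme synthesis and breakdown, 1 had an unadjusted p under 0.05, Hmox1, and DESeq2 called none. Alas1, the first step of heme synthesis, had a log2 fold change of 0.65 ± 0.32, and Hmox1, which degrades heme, had -0.88 ± 0.37, with edgeR adjusted p of 0.339 and 0.249.

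Regulators of P450 genes held 3 genes called higher of 22 tested and none called lower, beside 1.2% called higher among all genes. The 3 were Dbp, Tef and Hlf, the PAR bZIP factors that carry clock output to liver P450 genes. Dbp had 1.23, 3.61, 2.62 and 4.46 CPM in the AL mice and 30.2, 45.3, 30.4 and 42.0 CPM in the CR mice. The groups lay far apart, with a log2 fold change of 3.61 ± 0.33 (SE, n = 4 per group) at an edgeR Benjamini-Hochberg adjusted p of 0.000672. Tef rose by 1.81 ± 0.23 on the log2 scale and Hlf by 1.66 ± 0.29, at edgeR adjusted p of 0.00389 and 0.0161. The Hlf call was lost without AL replicate 1 or 2 or CR replicate 2 or 3, at log2 fold changes of 1.55 to 1.63 and edgeR adjusted p of 0.0550 to 0.0689. The Tef and Hlf calls were lost with the parotid score as a covariate, at log2 fold changes of 1.99 ± 0.50 and 2.23 ± 0.59 and edgeR adjusted p of 0.414 and 0.442. Vdr at 1.28, Cebpb at 1.06 and Nr1h3, the oxysterol receptor LXR alpha, at -1.34 had an unadjusted p under 0.05 and missed the adjusted threshold, with edgeR adjusted p of 0.111, 0.0986 and 0.261. DESeq2 called Vdr and Cebpb higher, at adjusted p of 0.0320 and 0.0272, and edgeR without CR replicate 4 called Vdr, at 0.0476. Nr1i2 and Nr1i3, the xenobiotic receptors PXR and CAR, were at 0 in all libraries. Ahr, the aryl hydrocarbon receptor, and Ppara, the receptor that drives Cyp4a genes in liver, had log2 fold changes of 0.26 and 0.10 and were not called.

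Other enzymes of foreign compound metabolism had 2 called genes of 21 tested, 1 higher and 1 lower, beside 1.2% and 0.785% of all genes. Fmo2, a flavin monooxygenase, had 4.16, 4.84, 7.43 and 4.41 CPM in the AL mice and 15.8, 19.0, 24.1 and 6.93 CPM in the CR mice. CR replicate 4 fell within the AL range, and the log2 fold change was 1.66 ± 0.35 (SE, n = 4 per group) at an edgeR Benjamini-Hochberg adjusted p of 0.0335. Papss2, which makes the sulfate donor PAPS, ranged from 101 to 125 CPM in AL and from 43.4 to 79.9 CPM in CR, at -0.98 ± 0.20 and an edgeR adjusted p of 0.0334. The Fmo2 call held without AL replicate 3 or CR replicate 4 and was lost without any other library, at edgeR adjusted p of 0.0632 to 0.116. The Papss2 call held without AL replicate 4 or CR replicate 4 and was lost without any other library, at edgeR adjusted p of 0.0777 to 0.116. Both calls were lost with the parotid score as a covariate, at log2 fold changes of 1.14 and -0.68 and edgeR adjusted p of 0.676 and 0.640. Ephx1, the microsomal epoxide hydrolase, at 0.97, Sult1d1 at 1.35 and Aox3, an aldehyde oxidase, at -1.10 missed the adjusted threshold, with edgeR adjusted p of 0.0635, 0.0595 and 0.108, and each was called with the replicate block, at 0.0187, 0.00935 and 0.0112. With the parotid covariate their log2 fold changes were 0.18, 0.93 and -0.17, at edgeR adjusted p of 0.937, 0.725 and 0.951. The block also brought Ces1d, a carboxylesterase with a log2 fold change of 1.78, past the thresholds. Of Cyp51, the lanosterol demethylase, and Tbxas1, the thromboxane synthase, neither was called. Over the 70 tested genes of all companion lists, 4 were called higher and 1 lower, and with the replicate block 7 and 3, where the shares of all genes called also rose, to 3.46% and 2.78%.

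**Figure D5:**
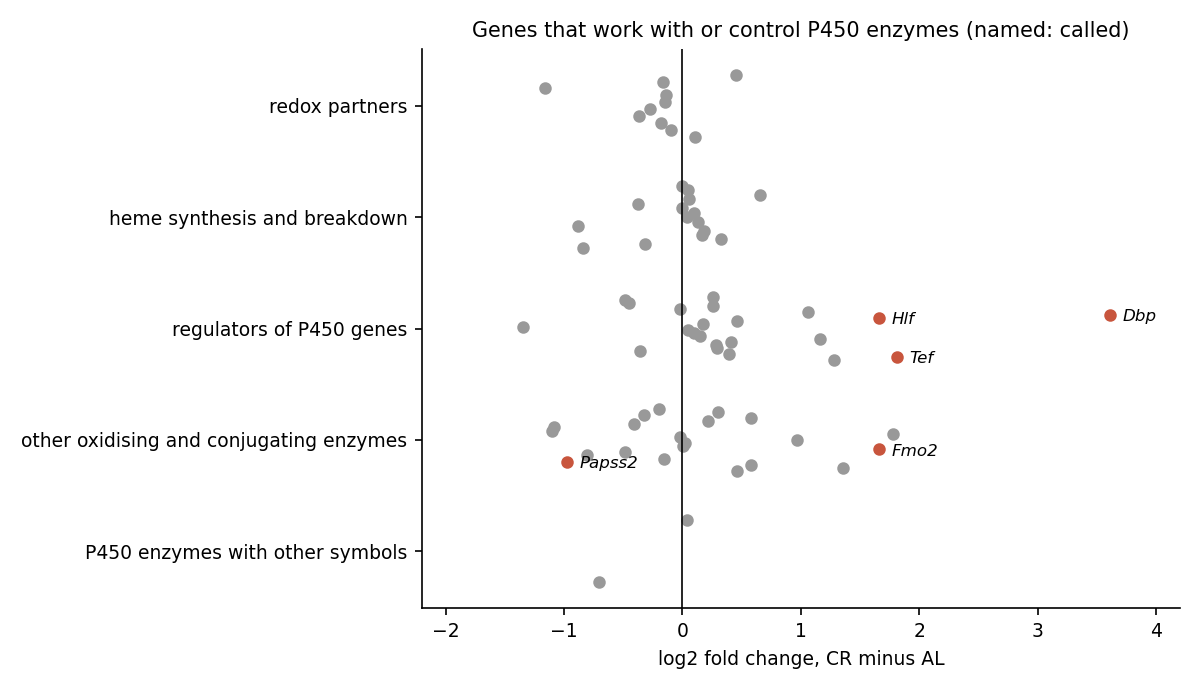
Log2 fold change of CR against AL for each tested gene of 5 companion lists, with 1 point per gene and called genes in red and named. No redox partner or heme gene was called in the main edgeR test, while Dbp, Tef and Hlf stand out among the regulators, from 1.66 to 3.61.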

How the data were processed

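The data were gene counts of 3′ end sequencing in 8 LG libraries. The authors deposited raw counts, obtained on the ROSALIND platform with cutadapt for trimming, STAR for alignment to mm10 and HTSeq for counting. Tool versions and strand settings were not given in the sources used here. A deposited table of normalised log2 values was not used. The diet in each label defined the groups.

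P450 members and all gene lists were chosen with earlier results of these data known. After 5 repeated symbols had been removed, the whole table was fitted in edgeR 4.0.16 (R 4.3.3) with filterByExpr, RLE factors and quasi-likelihood F tests. Adjustment by Benjamini-Hochberg covered the 11211 genes kept. The SE was the size of the log2 fold change over the root of F. The script was tested on simulated data. Total counts ranged from 12051881 to 22156511, and floors cover counting error only.

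P450 genes have values if called, at an unadjusted p under 0.05, without overlap, among the 10 most counted, named by the study or, if untested, with 50 counts or more. Companion genes are named if called or at an unadjusted p under 0.05, and Por always. Nr1i2, Nr1i3, Ahr, Ppara, Alas1, Ces1d, Cyp51, Tbxas1 and Egln2 were added after their values were seen. The companion lists leave out 1 gene that is not reported here. GENCODE vM21 gave positions for 102 of 104 symbols.

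Replicate numbers were examined as pairs. Deviations from the group means correlated by 0.114 to 0.535 in the 4 same-numbered pairs, all above 0.1, and 6 of 8 libraries correlated best with their own number. The pairing rests on these correlations, as no shared batch was stated. No library repeated another within sampling noise.

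As alternatives, other factors (TMM, upper quartile), other tools (DESeq2 1.42.0, limma 3.58.1 voom with quality weights, robust dispersion), other filters (none, or 10 counts in each library), no fold threshold, a replicate block, a parotid covariate, removal of the 50 most counted genes and of each library were tried. Summed near-identical genes and subsampled libraries were added after seeing the data.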

Additional observations from a re-analysis of the deposited data

Results flagged for a closer look

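Of 82 groups of 4 libraries screened, over named genes and P450 sums, 3 held a library far from the others, where chance marks about 1 group in 20. Cyp2f2 in CR replicate 4 stood at 432 CPM, and the next CR library was at 209 CPM. Hlf in AL replicate 4 stood at 6.39 CPM, with the next AL library at 3.19 CPM. Nr1h3 in AL replicate 3 stood at 3.28 CPM, with the next at 1.62 CPM. In the same library macrophage markers summed to 275 CPM, against 105 to 149 CPM in the other AL libraries, and T cell markers to 13.9 CPM, against 2.39 to 5.64 CPM. B cell markers summed to 11.9 CPM there and to 12.9 CPM in AL replicate 2. Plasma cell markers, at 131 CPM, were the lowest of the AL libraries. Whether these markers relate to the Nr1h3 value was not tested. CR replicate 4 was also the CR library with the fewest parotid and the most lacrimal marker counts, and the cause was not tested.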

How the results depend on the processing

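P450 genes called higher, 3 in the main test, numbered 5 with DESeq2, 5 with voom, 6 without the filter, 1 with at least 10 counts in every library, where Cyp2s1 and Cyp2e1 could not be tested, 5 with the replicate block, 1 with the parotid covariate, and 0 to 5 on leaving out each library. None was called lower under any alternative. Companion genes called higher, 4 in the main test, numbered 8 with DESeq2, 6 with voom, 6 without the filter, 7 with the block, 1 with the covariate, and 2 to 7 on leaving out each library. Those called lower, 1 in the main test, numbered 2 with upper-quartile factors, 3 with DESeq2, 3 with voom, 2 with robust dispersion, 2 without the filter, 2 with at least 10 counts, 3 with the block, 0 with the covariate, and 0 to 4 on leaving out each library. Beyond the genes named above, the block changed no other call. With robust dispersion Cyp2a5 had an edgeR adjusted p of 0.0783. The covariate turned the log2 fold change of Cyp2f2 to 0.58, Cyp27a1 to 0.96, Cyp4a12b to 0.26, Cyp4v3 to 0.56, Cyp4f18 to 2.83, Cyp26b1 to -0.77, Cyp2j6 to -0.71, Cyp46a1 to -1.24 and Cyp4f13 to -0.25, moved Cyp2b10 to 0.46, Cyp1b1 to 3.08, Ephx1 to 0.18, Aox3 to -0.17, Hmox1 to -0.023 and Por to 0.86, and left 4 genes of the whole table called. Voom turned Cyp20a1 to -0.076 and Cyp4f18 to 0.12. On leaving out a library, Cyp20a1 ranged from -0.086 to 0.29, Cyp26b1 from -0.015 to 0.69, Cyp27a1 from -0.34 to 0.18, Cyp2j6 from -0.16 to 0.18, Cyp46a1 from -0.083 to 0.50, Cyp4f18 from -0.68 to 0.18 and Por from -0.036 to 0.24, none of them called. Over the whole table, 134 of 11211 genes were called higher and 88 lower, 385 and 317 with DESeq2 and 388 and 312 with the block, and those called higher numbered 237 with voom, 271 of 16735 without the filter, 111 of 9280 with at least 10 counts and 35 to 453 on leaving out each library. Low counts limit the P450 genes that could not be tested. The cause was not tested.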
